A study of Mus musculus with 18 samples.

Results

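Transcription factor genes that direct the making of neutrophils, 8 in number, were followed through 18 RNA sequencing libraries of mouse lung neutrophils. They were taken by symbol from the deposited gene table: Cebpa, Cebpb, Cebpd, Cebpe, Gfi1, Spi1, Irf8 and Runx1. All 8 were among the 40481 gene IDs of the table and among the 16575 that passed a filter on low counts. The study compared wild-type (WT) mice with mice labelled CGD/CYBB KO, both of strain C57BL/6. In chronic granulomatous disease (CGD) phagocytes cannot make superoxide, and the most frequent form is caused by mutation of Cybb, which encodes gp91phox of the NADPH oxidase. Live lung cells positive for CD45, CD11b and Ly6G were sorted, so every library shares that gate, and were divided by surface CD101, a marker that is acquired late in neutrophil maturation. Per the labels, CD101pos cells were called mature and CD101neg cells immature. The 6 groups held 3 libraries each. WT zymosan CD101pos, CGD zymosan CD101pos, WT zymosan CD101neg and CGD zymosan CD101neg cells came from female mice aged 13 weeks, 24 h after 20 µg of intranasal zymosan, a sterile yeast cell wall preparation. WT naive CD101pos and CGD naive CD101pos cells came from male mice aged 12 weeks without zymosan, and no naive CD101neg group was made. Zymosan, sex and age therefore cannot be told apart. The labels do not state that the 3 libraries of a group came from separate mice, and p-values therefore refer to the spread among these libraries, which may be technical.

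Neutrophils arise from marrow progenitors through stages that are set by a small network of factors. C/EBPα (Cebpa) commits progenitors to the granulocyte path, and PU.1 (Spi1) and RUNX1 act beside it in early myeloid genes. GFI1 is a repressor that holds down monocyte genes, and C/EBPε (Cebpe) drives the secondary granule genes at the later stages. C/EBPβ (Cebpb) takes over in emergency granulopoiesis, when infection or inflammation raises demand, and both C/EBPβ and C/EBPδ (Cebpd) act on cytokine and acute phase genes. IRF8 pushes the shared progenitors toward monocytes and dendritic cells and restrains granulocyte output. It is also made by B cells, macrophages and dendritic cells.

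Libraries held between 33713174 and 67939826 counted reads. Levels are given as CPM, the reads of a gene relative to the size of its library, scaled by TMM, a normalization that corrects for differences in RNA composition. The TMM factors of the CGD zymosan CD101neg libraries ran from 0.702 to 0.809, at the low end of the 0.702 to 1.24 seen over all libraries. Cybb itself was 45.1 ± 4.66 CPM in CGD and 263 ± 10.1 CPM in WT CD101neg cells (SD, n = 3 each), a log2 fold change of -2.55 ± 0.19 (SE; edgeR quasi-likelihood test, adjusted p = 8.15e-07). Cd101 mRNA was lower in CD101neg than in CD101pos cells within each genotype, at 166 ± 16.1 against 403 ± 70.3 CPM in WT and at 61.1 ± 18.4 against 105 ± 7.96 CPM in CGD. The CGD CD101pos cells thus held less Cd101 mRNA than the WT CD101neg cells. The 10 neutrophil markers were detected in every library and summed to between 18325 and 114150 CPM.

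Promoter windows of 250 bases before to 50 after a gene's start were found for 5 of the 8 members in RefSeq (GRCm38.p6); Cebpd, Cebpe and Spi1 had none in that table. A window of Irf8 and one of Gfi1 are shown because each holds a motif of another factor of this network. Both strands were searched for C/EBP (TTGCNNAA), PU.1 (GAGGAA), RUNX (TGTGGT), GFI1 (AAATCAC), STAT (TTCNNNGAA) and, by name only, IRF and NF-kB consensus motifs, and capitals mark the matches. The sequences run 5′ to 3′ on the gene's strand, chr8:120736108-120736407 (+) for Irf8 and chr5:107725756-107726055 (-) for Gfi1.
Irf8: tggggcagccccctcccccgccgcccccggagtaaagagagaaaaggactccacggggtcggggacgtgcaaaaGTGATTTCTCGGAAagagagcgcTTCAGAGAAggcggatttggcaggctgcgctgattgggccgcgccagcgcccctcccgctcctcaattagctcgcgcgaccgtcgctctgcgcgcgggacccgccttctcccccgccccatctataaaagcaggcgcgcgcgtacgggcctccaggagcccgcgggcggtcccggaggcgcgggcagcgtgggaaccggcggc
Gfi1: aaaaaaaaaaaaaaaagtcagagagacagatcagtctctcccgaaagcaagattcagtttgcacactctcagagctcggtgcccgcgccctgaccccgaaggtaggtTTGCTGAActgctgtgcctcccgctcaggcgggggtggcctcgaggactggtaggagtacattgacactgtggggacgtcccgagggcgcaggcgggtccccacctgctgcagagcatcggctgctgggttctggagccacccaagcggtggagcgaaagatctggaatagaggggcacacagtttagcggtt
In the Irf8 window the GFI1 letters lie on the opposite strand from -176 to -170, counted from the start site, and overlap a STAT match from -171 to -163; another STAT match lies from -153 to -145. In the Gfi1 window the C/EBP letters lie from -143 to -136. RefSeq gives another start with its own window for each of Gfi1, Irf8 and Runx1; the other windows of Gfi1 and Irf8 held no match, and neither did those of Cebpa and Cebpb. A window of Runx1 held the RUNX letters on the opposite strand from 29 to 34 and from 37 to 42, after the start, and the other held the PU.1 letters from -46 to -41. Among 32851 RefSeq promoters, 3.2% held the GFI1 letters, 8.3% the STAT letters and 10.8% the C/EBP letters. The PU.1 letters were in 28.3%, RUNX in 16.8%, IRF in 3.44% and NF-kB in 1.47%. The matches are descriptions of the sequence, and binding was not measured.

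Per kilobase of exon, the members fell into 3 tiers. Cebpb (158 RPKM, which is CPM per kilobase; mean over 18 libraries, SD 47.2) and Spi1 (154 ± 42.1 RPKM) were abundant. Cebpe (6.73 ± 2.91 RPKM), Cebpd (4.98 ± 2.26), Runx1 (2.63 ± 1.04), Irf8 (1.27 ± 0.537) and Cebpa (0.915 ± 0.435) were low. Gfi1, at 0.106 ± 0.166 RPKM, was at the edge of detection. Cebpb and Spi1, the most abundant members, are known to stay on in mature myeloid cells, while Cebpa and Gfi1, the least abundant, belong to progenitor and promyelocyte stages. Of the primary granule genes that are made at the promyelocyte stage, Mpo did not exceed 0.294 CPM in any of the 18 libraries, Elane 0.248 CPM and Ctsg 0.0957 CPM, while Prtn3 ran from 1.04 to 9.4 CPM. These granule genes were chosen after their values were seen.

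**Figure D1:**
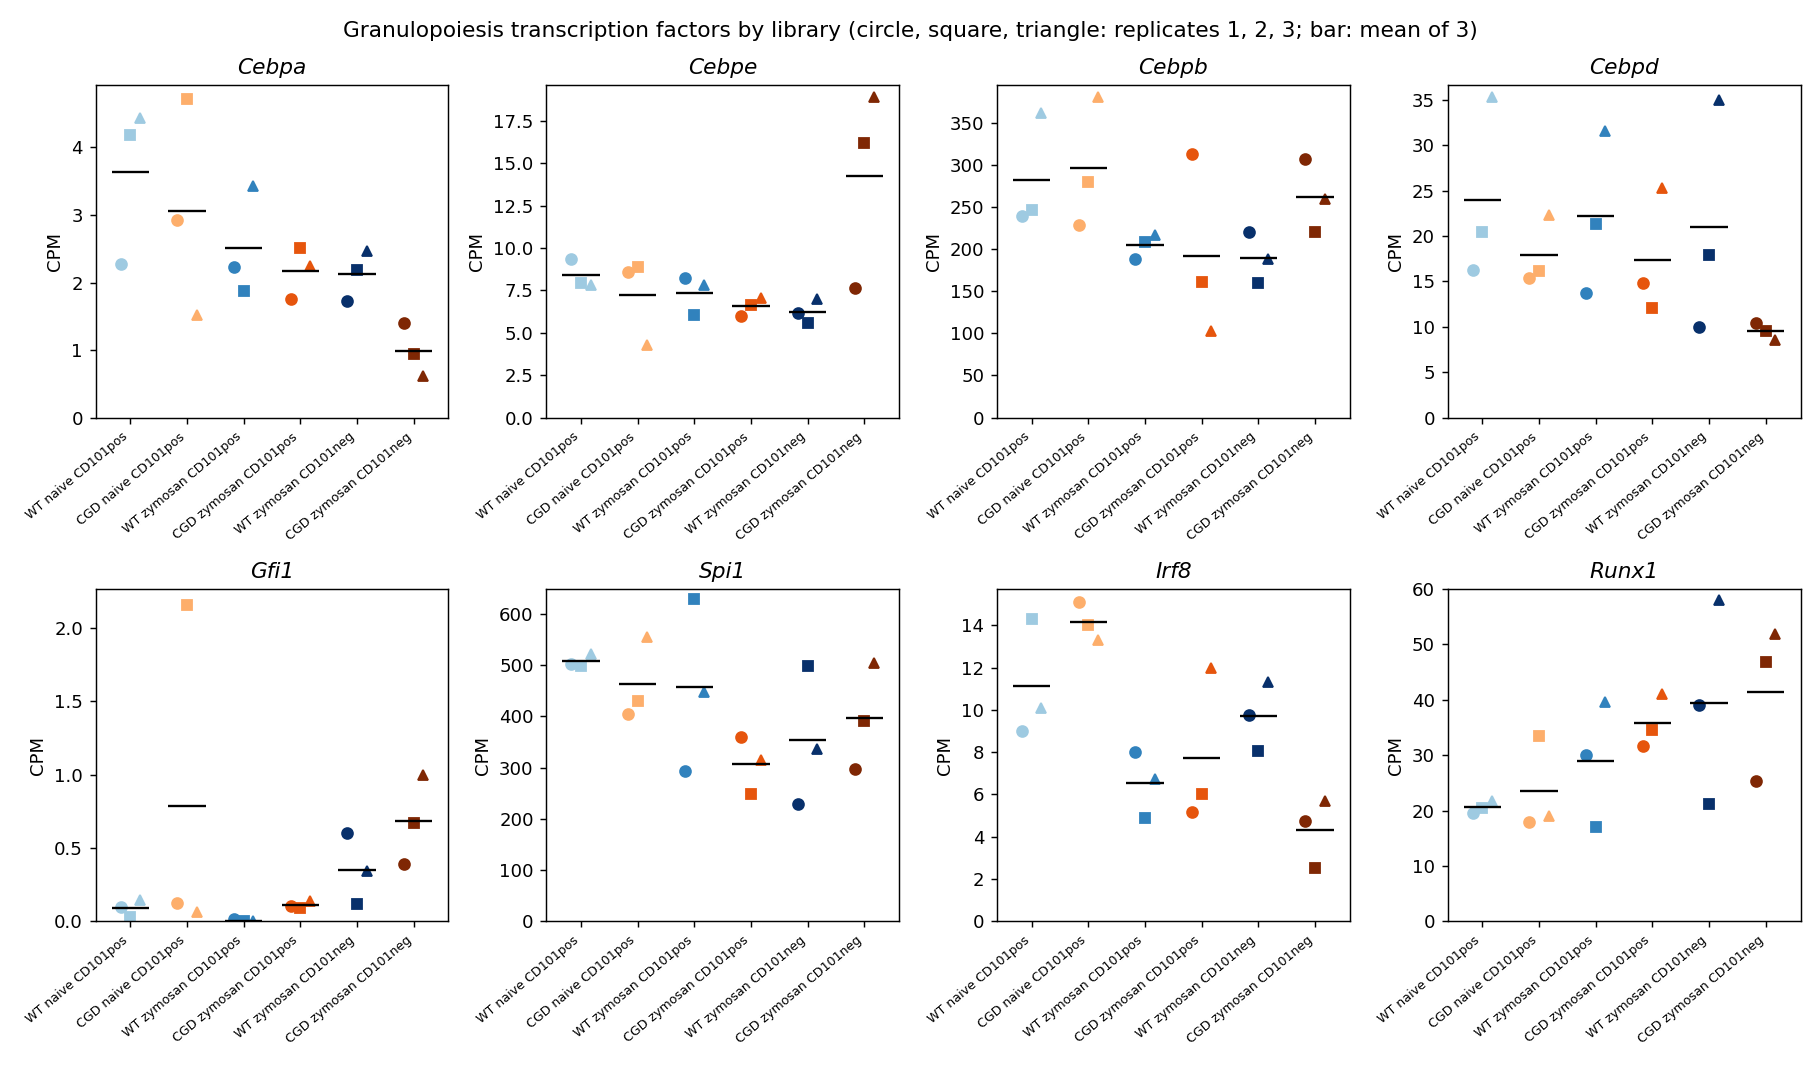
Level of each of the 8 transcription factor genes (CPM, linear axis from 0) in every library of the 6 groups; the bar is the mean of 3. Cebpe is high in CGD zymosan CD101neg replicates 2 and 3 (16.2 and 18.9 CPM), while Cebpa, Cebpd and Irf8 have their lowest group mean there.

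CGD and WT CD101neg cells were compared after zymosan, and whether they were equally mature was not tested. Cd101 mRNA was lower in these CGD cells (-1.45 ± 0.23, log2; edgeR, adjusted p = 0.000484). There 2 of the 8 members passed, Cebpe upward and Irf8 downward, beside 12.9% of all tested genes. DESeq2 called 3 members, beside 2947 genes in all. Cebpb, Spi1, Runx1 and Gfi1 did not pass, and their libraries overlapped between the genotypes. Cebpa and Cebpd were lower by more than 1 log2 unit without passing.

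Cebpe (ENSMUSG00000052435) encodes the factor of terminal granulocyte differentiation. In CGD CD101neg replicates 1, 2 and 3 it stood at 7.67, 16.2 and 18.9 CPM. In WT CD101neg replicates it stood at 6.18, 5.57 and 6.97 CPM. The CGD libraries were all above the WT libraries, although replicate 1 only just, and replicate 1 lay within the range of the naive and WT zymosan CD101pos libraries. The means were 14.3 ± 5.87 and 6.24 ± 0.702 CPM (SD, n = 3 each), a fold of 2.29 and a log2 fold change of 1.19 ± 0.29 (SE; edgeR quasi-likelihood test, Benjamini-Hochberg adjusted p = 0.0125). The call was lost without CGD CD101neg replicate 2 (1.09, adjusted p = 0.0553) and without replicate 3 (0.94, adjusted p = 0.0676). It was also lost when libraries were scaled by their totals alone (0.73, adjusted p = 0.153), a scaling that moved the median of all genes in this comparison to -0.57 from -0.08, and when only these groups were fitted (1.23, adjusted p = 0.0557).

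The same CGD CD101neg libraries were also above CGD CD101pos cells, in which Cebpe was even: 6.02, 6.66 and 7.05 CPM. The log2 fold change was 1.12 ± 0.29 (edgeR, adjusted p = 0.029), and Cebpe was the 1 member of 8 to pass in this comparison, beside 7.35% of all tested genes. DESeq2 called 2 members there, beside 2136 genes in all. In WT mice Cebpe was 7.38 ± 1.18 CPM in CD101pos and 6.24 ± 0.702 CPM in CD101neg cells, a log2 fold change of -0.24 with a 95% interval from -0.86 to 0.37. The difference between the genotypes in this subset contrast was 1.36 ± 0.41 (log2) and did not pass (edgeR, adjusted p = 0.136; DESeq2, adjusted p = 0.0377). With the replicate number within each genotype as a block it passed (1.25 ± 0.28, edgeR, adjusted p = 0.00755). Within CGD, the call was lost without any 1 of the CD101pos libraries (adjusted p from 0.0812 to 0.0942) and without CD101neg replicate 2 (0.115) or 3 (0.144).

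In the other groups Cebpe was narrow. WT naive cells held 8.39 ± 0.853 CPM, CGD naive cells 7.26 ± 2.57 CPM, and every neighbouring pair of groups in the order of means overlapped. The lowest library of all was CGD naive replicate 3, at 4.3 CPM.

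Secondary granule genes that C/EBPε is known to drive were set beside it. Ltf (lactoferrin), Camp (cathelicidin) and Ngp (neutrophilic granule protein) were looked at after their values were seen. Between groups the picture was mixed: CGD CD101neg cells had the highest mean of Cebpe and also of Ngp (3831 ± 3458 CPM), while the means of Ltf (630 ± 807 CPM) and Camp (77.3 ± 102 CPM) were highest in WT CD101neg cells. Within groups the libraries with less Cebpe mostly held more of these RNAs. Among CGD CD101neg cells, replicate 1 had the least Cebpe and the most Ngp, 7731 CPM, against 2623 CPM in replicate 2 and 1139 CPM in replicate 3. Among WT CD101neg cells, replicate 2 had the least Cebpe and the most Ltf, 1556 CPM, against 83.1 CPM in replicate 1 and 250 CPM in replicate 3. CGD naive replicate 3, the lowest of all libraries for Cebpe, held 963 CPM of Ltf, while the other libraries of its group held 93.9 and 101 CPM. The library with the least Cebpe had the most Ltf in 4 of 6 groups, the most Camp in 5 and the most Ngp in 5. Over 18 libraries the log2 levels of Cebpe and Ltf had a Pearson r of -0.10, and r was -0.67 after the group means were removed; for Camp the values were -0.16 and -0.71, and for Ngp -0.03 and -0.70. The points share libraries and their scaling, and r is given as a description. In most groups the 3 granule genes peaked in the same library, so their counts and r repeat 1 pattern. How many of all genes share this pattern against Cebpe was not counted. In each zymosan group and in CGD naive cells, the library with the least Cebpe also had the highest sum of the 10 neutrophil markers. It also had the lowest TMM factor of its group. CGD CD101neg replicate 1 held 114150 CPM of these markers, against 60027 and 50834 CPM in replicates 2 and 3. In WT naive cells replicate 3 had the least Cebpe and the lowest sum, 33690 CPM. The part of this difference between libraries was not tested. None of the 3 genes passed between CGD and WT CD101neg cells, where Ngp stood at 1.56 ± 1.22 and Ltf at -0.69 ± 0.94 (log2 fold change; edgeR, adjusted p = 0.435 and 0.682).

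**Figure D2:**
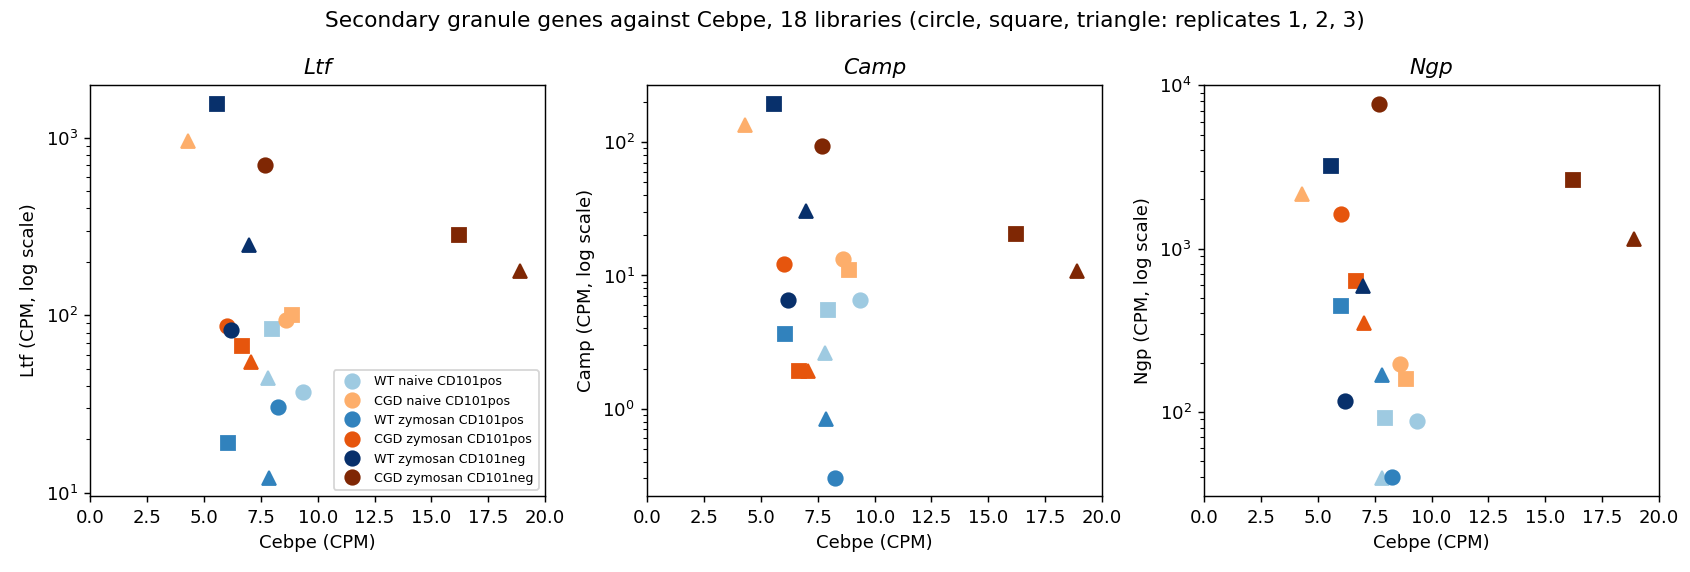
Level of Ltf, Camp and Ngp (CPM, log axis) against Cebpe (CPM, linear axis) in the 18 libraries, by group and replicate. Within most groups the library with the least Cebpe holds the most granule RNA, as in CGD zymosan CD101neg replicate 1 with 7.67 CPM of Cebpe and 7731 CPM of Ngp.

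Of the 17 secondary and tertiary granule genes listed, 2 rose and 1 fell in CGD CD101neg cells against WT. The other 14 did not pass, in a comparison where 12.9% of all tested genes passed. Chil3, a chitinase-like protein of neutrophils and alveolar macrophages, rose by 2.56 ± 0.42 and Olfm4, a specific granule protein, by 2.01 ± 0.45 (log2). The gene that fell was Cybb, the gene named in the knockout label. The list's median log2 fold change was 0.31, beside -0.08 for all genes. Of the 10 primary granule genes listed, 9 were in the table and 8 were tested. In the same comparison, beside the same 12.9% of all genes, 1 of these 8 rose and 1 fell. Srgn, a granule proteoglycan, rose by 1.32 ± 0.22 and Nkg7, which is best known from cytotoxic lymphocytes, fell (-2.04 ± 0.55).

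Irf8 (ENSMUSG00000041515) was the member that passed downward. CGD CD101neg replicates 1, 2 and 3 held 4.74, 2.52 and 5.67 CPM. WT CD101neg replicates held 9.77, 8.06 and 11.3 CPM. The groups did not overlap, and the lowest library was CGD replicate 2. The means were 4.31 ± 1.62 and 9.7 ± 1.6 CPM, a log2 fold change of -1.17 ± 0.32 (edgeR, adjusted p = 0.0224). The call was lost without WT CD101neg replicate 1 (adjusted p = 0.0529), without WT replicate 3 (0.0748), without CGD replicate 2 (-0.90, adjusted p = 0.113) and when only these groups were fitted (0.0649). In the CD101pos cells after zymosan the direction was not the same, with 7.71 ± 3.71 CPM in CGD and 6.54 ± 1.56 CPM in WT (log2 fold change 0.24, 95% interval -0.42 to 0.90). The test of that difference between subsets gave -1.41 ± 0.45 (log2) and did not pass (edgeR, adjusted p = 0.15). It passed with the replicate number within each genotype as a block (-1.42 ± 0.29, adjusted p = 0.00405), a pairing that the data bear out for WT and not for every CGD pair, and without the low-count filter (-1.48 ± 0.40, adjusted p = 0.0452). Between the CGD subsets Irf8 was lower in CD101neg cells with overlapping libraries (-0.84 ± 0.32, adjusted p = 0.118), and between the WT subsets it was higher without overlap (0.57 ± 0.32, adjusted p = 0.586); neither passed.

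Cells other than neutrophils also carry Irf8. Sums of B cell and of monocyte and interstitial macrophage markers were lower in the same libraries. Those of dendritic cell and alveolar macrophage markers overlapped between the genotypes. In this comparison 12.9% of all tested genes passed. The 10 B cell markers summed to 30 to 50.2 CPM in CGD CD101neg and to 130 to 154 CPM in WT CD101neg cells, and 8 of the 10 passed downward. The 14 markers of monocytes and interstitial macrophages summed to 866 to 1053 against 1170 to 1319 CPM, with 9 lower, among them C1qa, a complement component of macrophages (-2.10 ± 0.32). The 12 dendritic cell markers summed to 766 to 842 against 650 to 1317 CPM, with 3 lower, and 1 or 2 of these markers were at 0 in each CGD library. The 12 alveolar macrophage markers, Chil3 left out of the sum, came to 213 to 270 against 177 to 326 CPM; 7 passed downward, and Chil3 alone passed upward. Of 12 T and NK cell markers 2 were lower, of 6 tested eosinophil markers 2 were lower and 1 higher, and of 4 tested basophil and mast cell markers Hdc was higher. Of 12 epithelial, endothelial and fibroblast markers 1 was lower, and of 10 platelet and erythroid markers 1 was lower. Their part in the Irf8 result was not tested. In bulk samples, fewer cells of a type and less RNA per cell cannot be told apart.

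**Figure D3:**
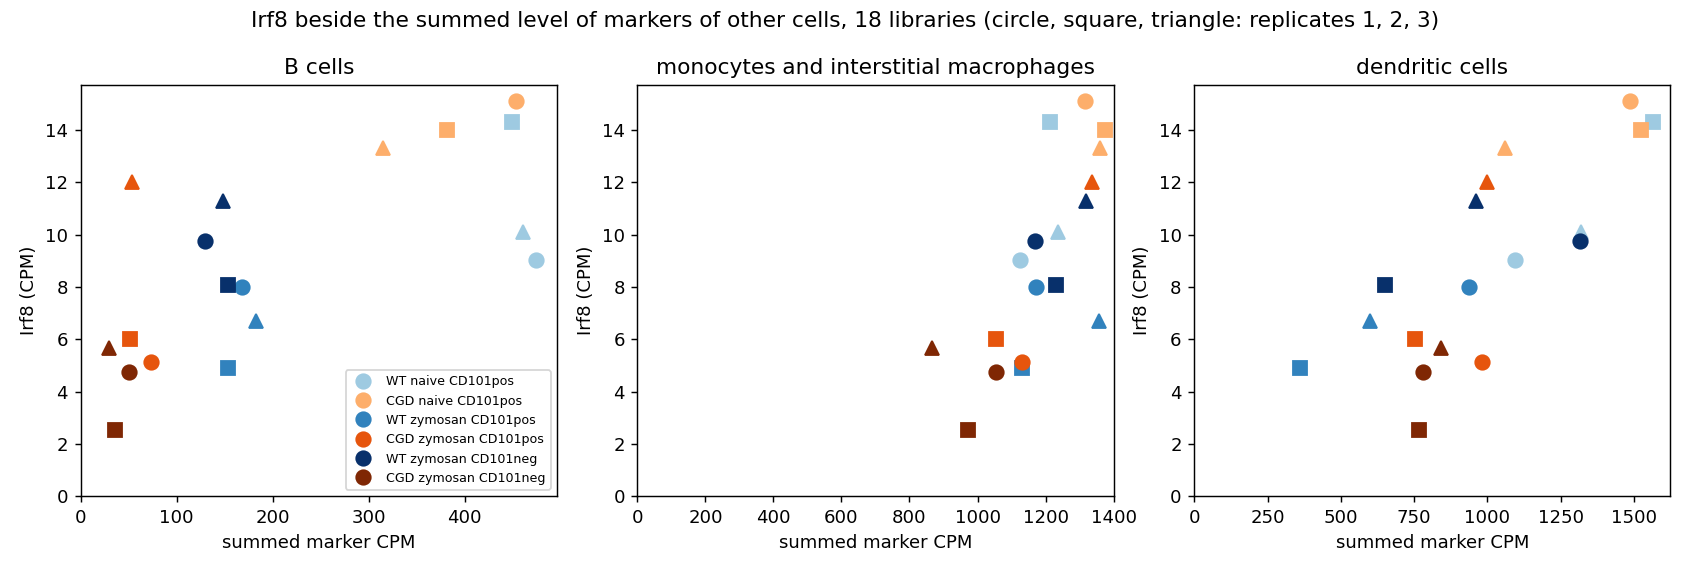
Irf8 (CPM) against the summed CPM of B cell, monocyte and interstitial macrophage, and dendritic cell markers in the 18 libraries. The CGD zymosan CD101neg libraries lie lowest or nearly lowest on Irf8 and lowest on the B cell sum (30 to 50.2 CPM), and the naive libraries lie highest on the B cell sum (315 to 474 CPM).

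The group means of Irf8 were highest in the naive cells. CGD naive libraries held 15.1, 14 and 13.3 CPM in replicates 1, 2 and 3, and WT naive libraries 9.02, 14.3 and 10.1 CPM. Zymosan CD101pos libraries were below the naive ones in each genotype without overlap, at -0.77 ± 0.32 in WT (edgeR, adjusted p = 0.21) and -0.87 ± 0.32 in CGD (adjusted p = 0.0792); neither passed. The B cell sum moved the same way here. In WT it went from 450 to 474 CPM in naive libraries to 154 to 183 CPM after zymosan. In CGD it went from 315 to 454 CPM to 51.8 to 73.2 CPM. Between the WT subsets it was 130 to 154 CPM in CD101neg cells, where Irf8 was higher than in CD101pos cells. In zymosan CD101pos cells the sum was lower in CGD than in WT, while mean Irf8 was 7.71 CPM in CGD and 6.54 CPM in WT. The part of B cells was not tested. The genes whose log2 levels most resembled Irf8 among 5118 candidates over 18 libraries were Ace (r = 0.90), Ly86 (0.89) and H2-DMa (0.88).

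**Figure D4:**
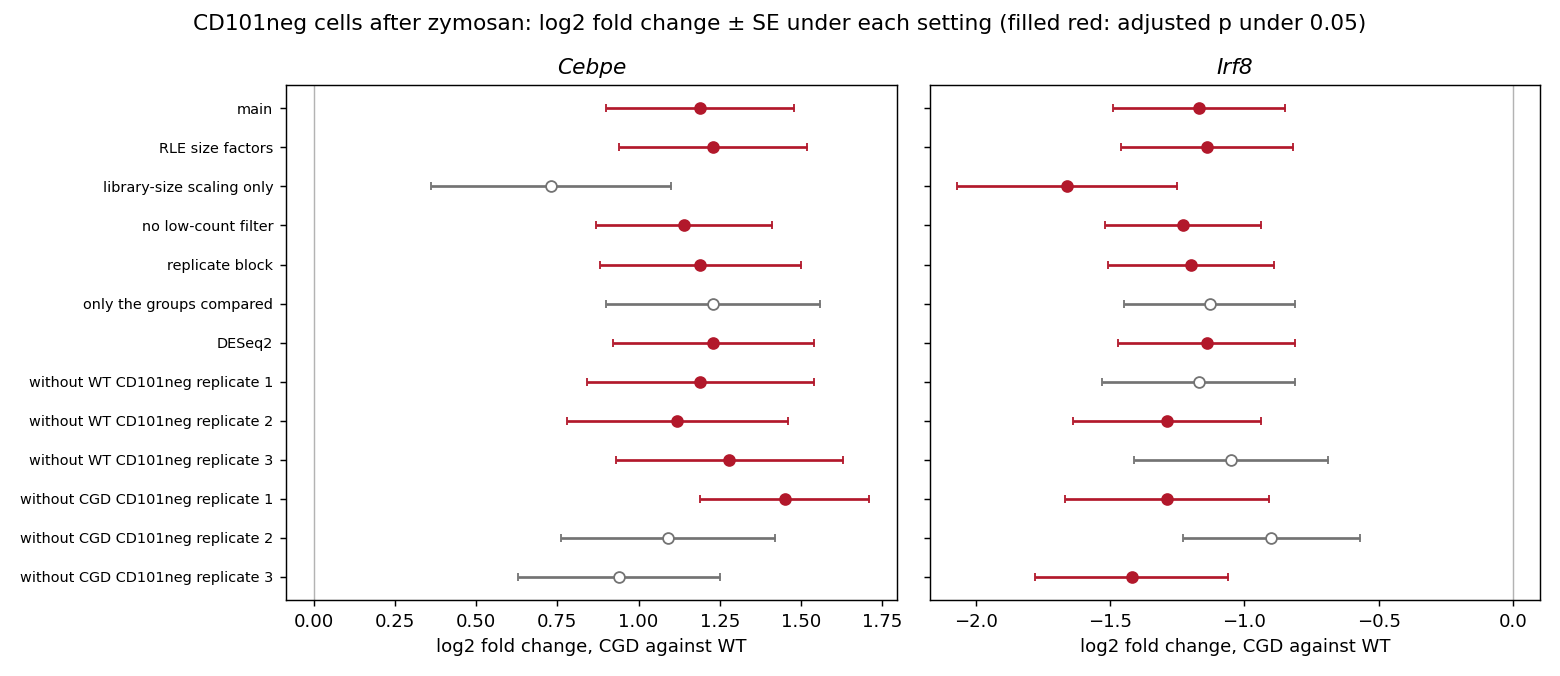
Log2 fold change ± SE of Cebpe and Irf8, CGD against WT CD101neg cells after zymosan, in the main fit and under each alternative; filled red points have an adjusted p under 0.05. The value for Cebpe runs from 0.73 to 1.45 and for Irf8 from -1.66 to -0.90, and both lose the call under several settings.

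Cebpa (ENSMUSG00000034957), the factor that opens the granulocyte path, was lowest in CGD CD101neg cells. Replicates 1, 2 and 3 held 1.4, 0.936 and 0.613 CPM, from 57, 46 and 27 reads. WT CD101neg replicates held 1.72, 2.18 and 2.47 CPM and CGD CD101pos replicates 1.76, 2.51 and 2.25 CPM. The CGD CD101neg libraries lay below both groups without overlap. The log2 fold change was -1.11 ± 0.41 against WT (edgeR, adjusted p = 0.0786) and -1.15 ± 0.41 against CGD CD101pos cells (adjusted p = 0.0926), and neither passed. Against WT it passed with library-size scaling (-1.61, adjusted p = 0.0173), without the low-count filter (-1.18, adjusted p = 0.0367) and without CGD CD101neg replicate 1 (-1.50, adjusted p = 0.0432). Against CGD CD101pos cells it passed in those settings too (adjusted p = 0.048, 0.0446 and 0.0484) and with DESeq2 (-1.12, adjusted p = 0.0489). In WT the CD101neg and CD101pos cells differed by -0.25 (log2, 95% interval -1.06 to 0.57). The remaining groups overlapped their neighbours in the order of means, from WT naive cells at 3.63 ± 1.18 CPM down to WT CD101neg cells at 2.13 ± 0.379 CPM.

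Cebpd (ENSMUSG00000071637) had the same lowest group. CGD CD101neg replicates were even, at 10.4, 9.54 and 8.58 CPM, while WT CD101neg replicates were spread over 9.96, 17.9 and 35 CPM. The groups overlapped at their ends, and the log2 fold change of -1.14 ± 0.41 did not pass (edgeR, adjusted p = 0.0723). Cebpd was the member that DESeq2 called beside Cebpe and Irf8 (-1.11, adjusted p = 0.0439), and it also passed with library-size scaling (-1.61, adjusted p = 0.0115) and with the replicate number as a block (-0.94, adjusted p = 0.0376). It moved to -0.55 without WT CD101neg replicate 3 and to -1.48 without WT replicate 1 (adjusted p = 0.0233). CGD CD101pos cells, at 14.8, 12.1 and 25.3 CPM, were above CGD CD101neg cells without overlap (-0.87 ± 0.40, adjusted p = 0.203). In the reference annotation (GENCODE M21), 15% of the exon bases of Cebpd lie within exons of Spidr on the opposite strand, and whether the counting used strand is not given in the sources used here.

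Cebpb (ENSMUSG00000056501), the factor of emergency granulopoiesis, ran from 103 to 381 CPM over all libraries and passed in no comparison. CGD CD101neg replicates held 307, 220 and 259 CPM and WT CD101neg replicates 220, 160 and 188 CPM. The CGD libraries reached higher and touched the WT ones at 220 CPM; the log2 fold change was 0.47 with a 95% interval from -0.17 to 1.10 (edgeR, adjusted p = 0.337). The largest spread was within CGD CD101pos cells, at 313, 161 and 103 CPM. Exons of Tmem189 on the opposite strand cover 20.7% of the exon bases of Cebpb.

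Inflammatory genes that C/EBPβ and C/EBPδ are known to drive were counted beside Cebpb and Cebpd, which did not pass in the main fit. The activity of these factors was not measured. Of 12 listed, 5 rose in CGD CD101neg cells against WT and none fell, where 12.9% of all tested genes passed. The list median was 1.07 (log2) beside -0.08 for all genes. The list was chosen with earlier results of these data known. Cxcl3, a neutrophil chemokine, rose from 569 ± 196 to 5396 ± 619 CPM (3.24 ± 0.30). Csf3, which encodes G-CSF, rose from 12 ± 4.56 to 65.4 ± 7.72 CPM (2.44 ± 0.31), and Cxcl2 rose by 1.08 ± 0.23. In CD101pos cells 3 of the 12 rose in CGD, where 5.3% of all tested genes passed. In zymosan against naive cells 7 rose in WT and 8 in CGD, where 3.79% and 12.8% of all genes passed. Of the 12 alveolar macrophage markers 8 were higher after zymosan in each genotype and 5 were higher in CGD than in WT CD101pos cells; their part was not tested.

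Gfi1 (ENSMUSG00000029275) is given in reads, because 7 of 18 libraries reached 10 reads. Apart from CGD naive replicate 2 and CGD zymosan CD101pos replicate 3, these were all CD101neg libraries. Gfi1 thus passed the low-count filter mainly through the subset in which it was higher, and its subset differences are given as descriptions. After zymosan, WT CD101pos replicates 1, 2 and 3 held 1, 0 and 0 reads. A count of 0 allows up to 3 reads, or 0.0615 CPM in replicate 2 and 0.0542 CPM in replicate 3. WT CD101neg replicates held 41, 6 and 19 reads. Gfi1 was thus detected in every WT CD101neg library and hardly in WT CD101pos cells after zymosan. WT naive CD101pos libraries held 6, 2 and 6 reads, at most 0.144 CPM, while WT CD101neg replicate 2 stood at 0.115 CPM. Summed over each group, 66 reads against 1 give a ratio of 63.8 in CPM, with a 95% interval for counting error alone from 11.1 to 2560. The log2 fold change was 5.49 ± 1.44 and did not pass (edgeR, adjusted p = 0.11). No member passed between the WT subsets, beside 0.44% of all tested genes. Under an unadjusted p of 0.05 there was 1 member, Gfi1, and the share of all genes under that threshold was not counted. DESeq2 called Gfi1 (adjusted p = 0.0116), among 329 genes in all. With the replicate number of each genotype as a block, which pairs the CD101neg and CD101pos sorts, it passed as well (5.62 ± 1.06, adjusted p = 0.00208), while all calls went from 73 to 1741. Leaving out WT CD101neg replicate 2 gave an adjusted p of 0.0386, and the other libraries left out gave 0.167 to 0.366.

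In CGD the same direction was seen with more reads in both subsets. CD101neg replicates held 16, 33 and 44 reads and CD101pos replicates 5, 6 and 10 reads. The groups did not overlap in CPM, with 0.393 to 0.998 in CD101neg and 0.0923 to 0.14 in CD101pos cells. The ratio of summed reads was 6.12 (95% counting interval 3.78 to 10.3), and the fit gave 2.59 ± 1.01 (log2; edgeR, adjusted p = 0.126). CGD CD101pos cells held 21 reads in all against 1 in WT CD101pos cells, a ratio of 19.3 (3.1 to 798), with a fitted 3.84 ± 1.53 (adjusted p = 0.175). Between CD101neg cells of the 2 genotypes the libraries overlapped (0.95 ± 0.93, adjusted p = 0.541).

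Among naive cells 1 library stood apart. CGD naive replicates 1, 2 and 3 held 9, 139 and 4 reads of Gfi1, against 6, 2 and 6 in WT. Replicate 2 alone, at 2.16 CPM, was the highest of the 18 libraries. The fitted difference of 3.12 ± 1.04 (edgeR, adjusted p = 0.456) fell to 0.12 without it. The same library was high in Ccl3, a chemokine chosen after its values were seen, at 1095 CPM against 126 and 204 CPM in the others of its group, and in Runx1, at 33.5 against 18 and 19.1 CPM. What set it apart was not tested. A430072P03Rik on the opposite strand shares 3.17% of the exon bases of Gfi1. The patterns most like Gfi1 over 18 libraries were those of Plgrkt (r = 0.87), D17Wsu92e (0.85) and Smad3 (0.82).

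Of 15 listed partners and repressed targets of GFI1, 2 rose and 1 fell in CGD CD101neg cells against WT, where 12.9% of all tested genes passed. Id2 rose by 1.51 ± 0.30 and Id1 by 0.79 ± 0.22; both encode inhibitors of basic helix-loop-helix factors. Csf1r, the M-CSF receptor of monocytes, fell from 537 ± 51.6 to 342 ± 79.4 CPM (-0.65 ± 0.20). Csf1r is also among the 14 monocyte and interstitial macrophage markers, of which 9 fell in this comparison; their part was not tested. The same 3 passed in the same directions in CD101pos cells, with Id2 at 1.42 ± 0.30, Id1 at 0.93 ± 0.22 and Csf1r at -0.89 ± 0.20. In CGD CD101neg against CD101pos cells, Zbtb17 (MIZ1, a GFI1 partner) rose by 1.06 ± 0.30 and Rcor1 (CoREST) by 0.75 ± 0.21.

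Spi1 (ENSMUSG00000002111) was abundant everywhere, from 228 to 629 CPM, and passed in no comparison. CGD CD101neg replicates held 298, 390 and 504 CPM and WT CD101neg replicates 228, 499 and 337 CPM. The groups overlapped widely, with a log2 fold change of 0.16 and a 95% interval from -0.44 to 0.77. CGD CD101pos cells were lowest, at 307 ± 56.3 CPM against 456 ± 168 CPM in WT (-0.57, interval -1.17 to 0.04; edgeR, adjusted p = 0.314), and they lay below CGD naive cells without overlap (-0.59, adjusted p = 0.2). WT naive libraries were nearly equal, at 503, 499 and 522 CPM. Of 13 listed PU.1 partners and ETS factors, Etv6 rose (0.74 ± 0.20) and Spib and Spic fell (-3.70 ± 0.66 and -2.17 ± 0.63) in CGD CD101neg cells. Against WT 12.9% of all tested genes passed there. Spib, a B cell and plasmacytoid factor, was 1.28 ± 0.782 CPM in WT and 0.0933 ± 0.0609 CPM in CGD, and the B cell markers given above moved with it.

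Runx1 (ENSMUSG00000022952) ran from 17.1 to 58 CPM and passed in no comparison. Its group means ran from 20.6 ± 1.08 CPM in WT naive to 41.4 ± 14.1 CPM in CGD CD101neg cells, but every neighbouring pair overlapped. CGD CD101neg replicates held 25.3, 46.9 and 51.9 CPM and WT CD101neg replicates 39.1, 21.1 and 58 CPM, with a log2 fold change of 0.07 (interval -0.66 to 0.80). Of 8 genes of the RUNX complex, Runx2 rose in CGD CD101neg cells against WT, from 17.5 ± 0.801 to 27.1 ± 3.22 CPM (0.63 ± 0.15), and against CGD CD101pos cells (0.90 ± 0.16). The corepressors Cbfa2t3 (-1.08 ± 0.28) and Runx1t1 (-1.27 ± 0.34) fell against WT, where 12.9% of all tested genes passed. The patterns most like Runx1 were those of Wtap, Syncrip and Trpm7 (r = 0.91 each).

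**Figure D5:**
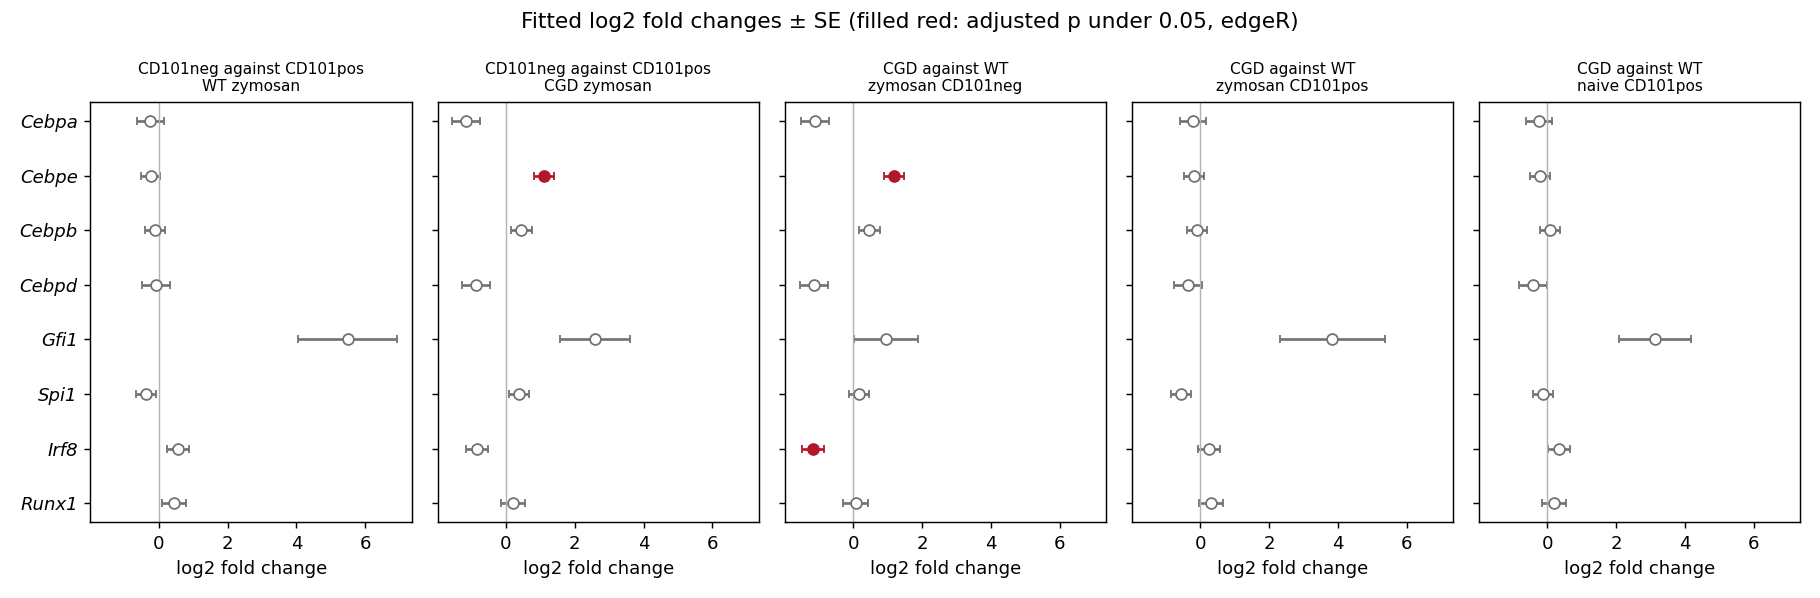
Fitted log2 fold change ± SE of the 8 genes in 5 comparisons; filled red points have an adjusted p under 0.05. Cebpe passes upward in 2 comparisons, at 1.12 and 1.19 and Irf8 once downward at -1.17, while Gfi1 has the widest errors, up to 1.53.

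Relatives of the 8 genes were compared between the genotypes in CD101neg cells as well, where 12.9% of all tested genes passed. Of 8 other IRF genes Irf1, an activator of interferon genes, rose from 250 ± 36.6 to 1136 ± 478 CPM (2.18 ± 0.28; adjusted p = 8.9e-05), and it also rose in CD101pos cells (1.57 ± 0.28). Of 10 C/EBP relatives and dimer partners Batf2 rose (3.56 ± 0.65) and Atf3 fell (-1.17 ± 0.37). Of 14 regulators of C/EBP proteins and G-CSF signalling Nampt, which makes NAD in the G-CSF pathway, rose (1.05 ± 0.28) and Lef1 fell (-1.01 ± 0.31). Of 14 tested progenitor and other lineage factors Lmo2 alone passed, upward (0.96 ± 0.29). Of 10 monocyte lineage factors 2 fell, among them Maf, which is typical of macrophages (-1.50 ± 0.30); macrophage markers such as C1qa fell in the same libraries, and their part was not tested.

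Within CGD, CD101neg cells differed from CD101pos cells in several of the same lists, beside 7.35% of all tested genes. Maf fell there too (-1.50 ± 0.30), and Zeb2 rose (1.11 ± 0.27). Ikzf1, a lineage factor, rose (0.86 ± 0.20), as did Ddit3, a C/EBP relative (0.61 ± 0.18), and Gabpa, an ETS factor (0.91 ± 0.27). Csf3 (1.72 ± 0.31) and Il1rn (1.71 ± 0.49) rose among the inflammatory targets. None of 17 secondary and tertiary granule genes, 8 primary granule genes, 14 regulators of C/EBP proteins or 8 other IRF genes passed there by edgeR. Beside these calls, 9 of 12 alveolar macrophage and 7 of 14 monocyte and interstitial macrophage markers were lower in the CD101neg cells, with Mrc1 at -3.48 ± 0.38 and C1qa at -3.49 ± 0.34. Within WT no gene of these 11 lists passed between the subsets by edgeR in the main fit. The closest were Nampt (1.21 ± 0.28, adjusted p = 0.06) and Ltf (4.94 ± 1.11, adjusted p = 0.0635). The lists were counted only in this fit, which does not pair the sorts. With the replicate number within each genotype as a block, 1741 genes passed between the WT subsets in place of 73.

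In CD101pos cells no member passed between CGD and WT, beside 5.3% of all tested genes after zymosan and 0.127% without it. Under an unadjusted p of 0.05 there was 1 member in each, Gfi1, and the share of all genes under that threshold was not counted. DESeq2 called no member, beside 1405 genes after zymosan and 110 without it. In the 6 members other than Gfi1 and Spi1 the log2 differences after zymosan lay between -0.35 (Cebpd) and 0.31 (Runx1). Among list genes after zymosan, Nampt (1.83 ± 0.29) and Socs3, a feedback inhibitor of G-CSF signalling (0.82 ± 0.22), rose, Stat5b fell (-1.03 ± 0.30), Myc rose (1.49 ± 0.29) and Bcl6 fell (-1.76 ± 0.28). Some macrophage markers were higher in these CGD CD101pos libraries. C1qa stood at 29.1 ± 9.93 against 9.6 ± 3.85 CPM (1.60 ± 0.31) and Mrc1 rose by 1.74 ± 0.35, the opposite of their direction in CD101neg cells. Of 12 alveolar macrophage markers 5 were higher and 0 lower, and of 14 monocyte and interstitial macrophage markers 4 were higher and 1 lower. The sum of those 14 was 1054 to 1336 CPM in CGD and 1131 to 1356 CPM in WT. The part of these markers in these results was not tested. Without zymosan, Cybb was the 1 gene of the 11 lists that passed.

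Zymosan and naive CD101pos cells differed in no member by edgeR, beside 3.79% of all tested genes in WT and 12.8% in CGD. An unadjusted p under 0.05 was reached by 2 members in each genotype, Gfi1 and Irf8, all downward. The share of all genes under that unadjusted threshold was not counted. DESeq2 called none in WT and 2 in CGD, Gfi1 (-2.81 ± 1.00, adjusted p = 0.033) and Irf8 (-0.87 ± 0.33, adjusted p = 0.0492), with Gfi1 resting on CGD naive replicate 2. Among all genes DESeq2 called 1222 in WT and 2827 in CGD. Cebpb was lower after zymosan in WT without overlap, at 188 to 217 CPM against 239 to 361 CPM (-0.46 ± 0.30, adjusted p = 0.479). In CGD Cebpb stood at -0.63 ± 0.30 with overlap (adjusted p = 0.197). The values of Cebpa, Cebpd, Cebpe and Runx1 were -0.52, -0.11, -0.18 and 0.49 in WT and -0.49, -0.04, -0.14 and 0.60 in CGD (log2), and all overlapped between zymosan and naive libraries. The genotypes did not differ in their zymosan contrast in any member by edgeR or DESeq2, none was under an unadjusted p of 0.05, and 0.32% of all genes passed. For the difference between genotypes in the subset contrast no member passed by edgeR, beside 0.851% of all genes. DESeq2 called Cebpe, among 589 genes in all. Cebpe and Irf8 were under an unadjusted edgeR p of 0.05, a threshold for which the share of all genes was not counted. Among list genes Runx2 passed (1.12 ± 0.22; edgeR, adjusted p = 0.0196), and so did macrophage markers such as C1qa (-3.70 ± 0.45).

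In the lists around the members some genes passed between zymosan and naive cells, beside 3.79% of all tested genes in WT and 12.8% in CGD. Of the 8 RUNX complex genes 3 fell in CGD and none passed in WT, with Runx2 at 14.5 ± 1.15 CPM after zymosan and 25.3 ± 2.27 CPM in naive CGD cells (-0.81 ± 0.16). Id1 rose in both genotypes, by 1.13 ± 0.23 in WT and 1.66 ± 0.23 in CGD (log2), and Id2 rose in CGD (1.71 ± 0.30). Spib fell in both (-3.00 ± 0.56 and -2.97 ± 0.56), together with the B cell markers. Of the 17 secondary and tertiary granule genes 3 rose in WT, and 5 rose and 2 fell in CGD; Chil3 rose by 2.68 ± 0.42 and 3.52 ± 0.44. Of the 8 tested primary granule genes 1 rose in WT, and 4 rose and 1 fell in CGD. Of the 12 alveolar macrophage markers 8 rose in each genotype. Of the 14 monocyte and interstitial macrophage markers 4 rose and 0 fell in WT, and 5 rose and 3 fell in CGD. C1qa, among those 14, rose by 1.85 ± 0.32 in WT and 3.20 ± 0.33 in CGD. The sum of the 14 was 1124 to 1236 CPM in naive and 1131 to 1356 CPM in zymosan WT libraries. In CGD it was 1317 to 1375 CPM in naive and 1054 to 1336 CPM in zymosan libraries. The part of these markers was not tested. Of the other lists, counted as higher and lower, C/EBP relatives gave 0 and 0 of 10 in WT and 2 and 0 in CGD, their regulators 1 and 0 of 14 and then 2 and 2, GFI1 partners and targets 2 and 0 of 15 and then 2 and 1, and PU.1 partners 0 and 2 of 13 and then 1 and 2. The other IRF genes gave 0 and 0 of 8 and then 1 and 0, progenitor factors 0 and 1 of 14 and then 1 and 2, and monocyte factors 1 and 0 of 10 and then 0 and 1. Whether the genotypes differ in these counts was not tested.

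Between the subsets the remaining members overlapped. Cebpb, Spi1 and Runx1 stood at 0.45 ± 0.30, 0.37 ± 0.29 and 0.21 ± 0.35 in CGD CD101neg against CD101pos cells (log2), and at -0.11 ± 0.30, -0.36 ± 0.29 and 0.45 ± 0.35 in WT. Cebpd stood at -0.08 ± 0.40 in WT. None of these differences passed.

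The 8 genes did not move as a block. Over 18 libraries the highest Pearson r between log2 levels of 2 members was 0.64, for Cebpa and Cebpd, followed by 0.63 for Cebpa and Irf8; with group means removed these fell to 0.29 and 0.16. Within groups the closest pairs were Cebpe and Runx1 (0.65), Gfi1 and Runx1 (0.61) and Cebpe and Gfi1 (0.56). The points share libraries, depth and scaling. The gene most like Cebpe was Tm9sf4 (r = 0.93), then Slc37a2 (0.90) and Myo18a (0.88). For Spi1 they were Slc16a3 (0.91), Apobec1 (0.90) and Arf3 (0.88), for Cebpa Tgfbr2 and Itga4 (0.85 each) and Pgrmc1 (0.84), for Cebpb Hnrnpl (0.83), Herpud2 (0.81) and Ppp1cb (0.79), and for Cebpd Wipf1 (0.85), Pithd1 (0.84) and Hlx (0.83).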

How the data were processed

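RNA from sorted lung neutrophils was made into libraries with the Clontech SMARTer kit, per the labels' protocols. The authors deposited raw counts of reads for each gene. The submitters' processing notes name featureCounts 1.4.6-p5, Subread and STAR 2.5.1a; no source used here gives the genome build, annotation or strand setting. Multi-mapping reads and reads shared by overlapping genes can therefore not be traced. The table had 40757 lines, of which 276 repeated a gene ID and were dropped.

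The 18 libraries were fitted together with edgeR 4.0.16 in R 4.3.3 (TMM, filterByExpr, robust quasi-likelihood test, 12 residual degrees of freedom, common variation 33% between libraries), and p-values were adjusted over 16575 genes by Benjamini-Hochberg with a threshold of 0.05. An SE is the log2 fold change divided by the square root of its F. There were 7 pairwise comparisons and 2 interactions. Alternatives were other size factors, library-size scaling, no filter, only the groups compared, replicate blocks, DESeq2 1.42.0 and each library left out. Correlations used log2 CPM with a prior count of 0.5. RPKM used the exon union of GENCODE M21. Counting intervals are exact and cover counting error only.

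The members and gene lists were chosen with earlier results of these data known. Every member was tested in every comparison. From each list at most 3 passing genes with the lowest p, or the 1 with the lowest p where none passes, could be named; the text says where a gene was chosen after its values were seen. Replicate numbers of the titles paired the WT CD101neg and CD101pos libraries, since deviations from the group means correlated at 0.40, 0.33 and 0.25 for replicates 1, 2 and 3; those of CGD (0.17, 0.00 and 0.19) did not reach 0.1 in every pair. Different libraries correlated at 0.941 or more within a group and none were identical.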

Additional observations from a re-analysis of the deposited data

How the results depend on the processing

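Over 25 alternatives the 72 member values were computed 978 times: 929 kept their side of the threshold, 34 came to pass and 15 no longer passed. None that passed changed sign; 62 values that passed in neither fit did, and these count among the 929. Members passing went from 0 to 1 between the WT subsets without the filter, with the block within genotype and with DESeq2 (Gfi1 in each; 0 to 1 leaving out libraries; Gfi1 could not be fitted with only the WT groups). Between the CGD subsets they went from 1 to 2 without the filter and with DESeq2, and to 5 with the block within genotype, where Cebpa, Cebpd, Gfi1 and Irf8 joined Cebpe (0 to 2 leaving out libraries); library-size scaling and the fit of only these groups each kept 1, but lost Cebpe (0.81 and 1.10) for Cebpa and Gfi1. Between CGD and WT CD101neg cells they went from 2 to 0 with only the groups compared (0 to 3 leaving out libraries) and to 3 with DESeq2 and the replicate block (Cebpd joining), without the filter (Cebpa joining) and with library-size scaling (Cebpe lost, Cebpa and Cebpd joining). Zymosan in CGD went from 0 to 2 with library-size scaling (Cebpb and Spi1) and with DESeq2 (0 to 1 leaving out libraries). The genotype by subset interaction went from 0 to 1 without the filter (Irf8) and with DESeq2, and to 3 with the block within genotype (Cebpe, Spi1 and Irf8; 0 to 1 leaving out libraries). A block of replicate numbers alone gave 0, 1 and 3 members between the WT subsets, the CGD subsets and the CD101neg genotypes. The causes were not tested.

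Counts over all genes moved most between the WT subsets, from 73 to 0 with only those groups, 140 without the filter, 329 with DESeq2 and 1741 with the block. CGD subsets went from 1218 to 2136 (DESeq2) and 3924 (block), CD101neg genotypes from 2139 to 1062 (only those groups) and 3985 (library size, 413 higher and 3572 lower against 1105 and 1034), CD101pos genotypes from 878 to 572 (only those groups) and 1405 (DESeq2), naive genotypes from 21 to 6 (only those groups), 9 (library size) and 110 (DESeq2), and zymosan in WT from 629 to 1222 (DESeq2). The subset interaction went from 141 to 62 (only those groups), 327 (no filter), 589 (DESeq2) and 2229 (block), and the zymosan interaction from 53 to 13 (library size), 119 (no filter) and 261 (DESeq2). Leaving out a library gave 3 to 400 genes between the WT subsets, 321 to 1185 between the CGD subsets, 1164 to 1938 and 320 to 1125 between the CD101neg and CD101pos genotypes, 2 to 64 between naive genotypes, 263 to 560 and 1170 to 1891 for zymosan in WT and CGD, and 43 to 497 and 5 to 54 for the subset and zymosan interactions. Depth limits Gfi1 and, less so, Cebpa.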
